A study of Mus musculus with 10 samples.

Results

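Jchain-high barcodes were examined in single-cell RNA sequencing (scRNAseq) of intratumoral cells from SW1 mouse melanoma. They were chosen by a rule on their own RNA: at least 200 genes, at most 10% mitochondrial UMIs (unique molecular identifiers, which count RNA molecules), at least 3 UMIs of Jchain and no UMI of Cd3e, Cd3d or Cd3g, the T cell receptor signalling chains. Of the 36440 barcodes that passed the first 2 filters, 335 met the rule. There were 14 in the pretreatment library of day 0, 28 in control day 7, 31 in L-fuc day 7, 19 in control day 21 and 243 in L-fuc day 21. Because Jchain chose these barcodes, every difference in RNA between them and the other barcodes is given as a description without a test, and the leading variable genes of the antibody chains, which the rule did not read, describe how the barcodes vary among themselves.

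SW1 cells were injected under the skin of female C3H/HeJ mice aged 4 to 6 weeks, and after a period of growth, which the labels gave as 10 days and the study's methods differently, a pretreatment cohort of 3 mice was harvested (day 0), while the remaining mice drank control water or water with the sugar L-fucose (L-fuc) until day 7 or day 21. The labels gave the L-fuc concentration as 100 mM in one protocol and 100 nM in another, and the number of mice per arm as 5 in one and 6 in the other. CD45+ cells were sorted from the tumors, and the cells of all mice of a condition entered 1 pooled library, so that a condition has 1 sample, mice cannot be told apart within it, and no p-value can be given. All intervals below are exact 95% intervals (binomial for shares, Poisson for sums) and cover counting error only, not the spread between mice.

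Plasma cells are the end stage of the B cell lineage, which secretes antibody at a high rate. An antibody joins heavy chains, whose constant part sets the class (IgM, IgG or IgA), with light chains of the kappa or lambda type, and a B lineage cell normally expresses 1 rearranged heavy and 1 rearranged light variable gene. The J chain protein encoded by Jchain links IgM and IgA into larger secreted forms, Xbp1 encodes the transcription factor that builds the secretory machinery, Mzb1 encodes a chaperone of antibody assembly in the endoplasmic reticulum (ER), and Sdc1 encodes the surface proteoglycan CD138. Antibody RNA is so abundant in plasma cells that, when such cells break, it can be captured with the RNA of any other cell.

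The libraries held 14439185, 119047810, 88986101, 21727157 and 16589803 UMIs in the order given above, and 1660, 19298, 12265, 1981 and 1236 barcodes passed the filters. The sort label was only partly visible in the RNA: among the other barcodes that passed the filters, Ptprc, which encodes CD45, had a UMI in 48.6, 26.4, 35.9, 39.1 and 38.4%, and at least 2 of 6 tumor genes, among them Sparc, Sox10, Mitf, S100b and Apod, had a UMI in 19.1, 77.0, 38.9, 29.6 and 41.7%. Ptprc was found in 78.6, 39.3, 67.7, 78.9 and 44.4% of the Jchain-high barcodes. Depth differed in both directions, with median UMIs of 12416, 7420.5, 11969, 20167 and 1678 in Jchain-high barcodes against 4481.5, 4917.5, 2937.5, 4075.5 and 4527 in the others. Scrublet, at an expected rate of 0.08% per 1000 barcodes, marked 1 of the 335 as a doublet. It marked 429 of all 36440 barcodes and only 3 of the 1236 in L-fuc day 21, so few could be marked there. Of the Jchain-high barcodes 0, 2, 2, 1 and 11 had a barcode name that also passed the filters in another library, none of them Jchain-high there. Thus the Jchain-high barcodes were deeper than their neighbors in the first 4 libraries and shallower in L-fuc day 21, where a repeated antibody mixture (described later) made up 155 of the 243: the 88 Jchain-high barcodes of that library outside the mixture had a median of 10748.5 UMIs.

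The share of barcodes that met the rule was 0.843% (0.462 to 1.41) in the pretreatment library, 0.145% (0.0964 to 0.210) in control day 7, 0.253% (0.172 to 0.359) in L-fuc day 7, 0.959% (0.578 to 1.49) in control day 21 and 19.7% (17.5 to 22.0) in L-fuc day 21. The last library therefore held 243 of the 335 barcodes. Their summed Jchain counts were 3267, 3590, 10327, 9311 and 29617 UMIs, which were 97.6, 62.4, 55.5, 98.2 and 92.0% of all Jchain UMIs in the barcodes that passed the filters. In the pretreatment library 2 barcodes with 1886 and 1166 UMIs held most of this sum. The highest count in 1 barcode was 1886, 925, 2647, 1712 and 4716 UMIs and the median was 20.5, 37, 76, 195 and 8 UMIs, so that barcodes of few Jchain UMIs made up most of L-fuc day 21 and barcodes of many made up most of control day 21, as the plot of Jchain against total UMIs shows. At least 100 UMIs of Jchain were found in 2, 10, 15, 15 and 33 barcodes.

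**Figure D1:**
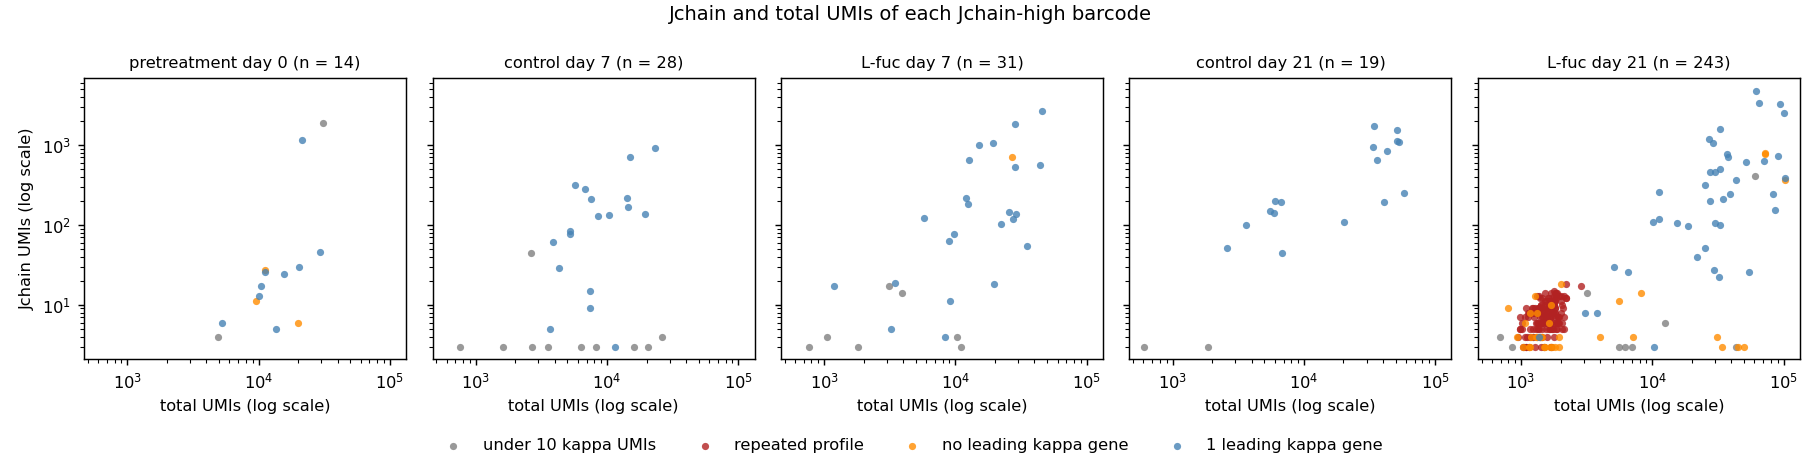
Jchain UMIs (log scale) against total UMIs (log scale) of each of the 335 Jchain-high barcodes, 1 panel per library, colored by their kappa variable genes. The 155 barcodes of the repeated profile form a tight cloud in L-fuc day 21 with no more than 18 Jchain UMIs, whereas barcodes with 1 leading kappa gene reach 4716.

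The light chain variable genes were used to ask how many antibody sources a barcode held. A barcode was counted as having 1 leading kappa gene where 1 Igkv gene took at least 80% of at least 10 Igkv UMIs. This was met in 9 of 12 barcodes in the pretreatment library (75.0%, 42.8 to 94.5), 18 of 18 in control day 7 (100%, 81.5 to 100), 23 of 24 in L-fuc day 7 (95.8%, 78.9 to 99.9), 17 of 17 in control day 21 (100%, 80.5 to 100) and 41 of 231 in L-fuc day 21 (17.7%, 13.0 to 23.3). The first 4 libraries thus held mostly 1 kappa gene per barcode, and L-fuc day 21 held mostly mixtures. The 335 barcodes divided into 108 with 1 leading kappa gene, 155 that carried 1 repeated mixture, 39 with other mixtures and 33 with fewer than 10 Igkv UMIs. In 9 of the 335 barcodes lambda outnumbered kappa UMIs.

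The 108 barcodes with 1 leading kappa gene used 39 different kappa genes, led by Igkv10-96 with 11 barcodes, Igkv1-110 with 9 and Igkv15-103 with 8. Together with the leading heavy chain variable gene there were 67 different kappa and heavy pairs. Of these, 5 were found in more than 1 library, the most widespread being Igkv8-30 with Ighv6-3 in 3 libraries. The repeated mixture was led by Igkv12-89, with 53.8% of the Igkv UMIs, and by Igkv4-55, with 32.5%, while Igkv12-44 was the leading gene of 7 barcodes of the same library with 1 kappa gene. The germline sequences of these 3 genes are shown because the number of antibody sources rests on reads being assigned to the right gene. They are the reference sequences of the main variable exon (exon 2) on the minus strand of GRCm38, written 5′ to 3′, from C57BL/6J mice and not from the C3H/HeJ mice studied. Capitals mark the 46 of 298 positions at which Igkv12-89 and Igkv12-44 differ. Igkv12-89 lies at chr6:68834846-68835143, Igkv12-44 at chr6:69814631-69814928 and the first 300 bases of the Igkv4-55 exon at chr6:69607278-69607577.
Igkv12-89: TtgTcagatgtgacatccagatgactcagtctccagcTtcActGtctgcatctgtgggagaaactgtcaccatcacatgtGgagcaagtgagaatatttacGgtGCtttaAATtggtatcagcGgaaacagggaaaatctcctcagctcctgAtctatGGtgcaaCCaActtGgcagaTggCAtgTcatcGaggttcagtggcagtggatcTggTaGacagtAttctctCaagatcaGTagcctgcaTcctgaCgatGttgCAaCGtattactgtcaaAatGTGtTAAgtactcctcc
Igkv12-44: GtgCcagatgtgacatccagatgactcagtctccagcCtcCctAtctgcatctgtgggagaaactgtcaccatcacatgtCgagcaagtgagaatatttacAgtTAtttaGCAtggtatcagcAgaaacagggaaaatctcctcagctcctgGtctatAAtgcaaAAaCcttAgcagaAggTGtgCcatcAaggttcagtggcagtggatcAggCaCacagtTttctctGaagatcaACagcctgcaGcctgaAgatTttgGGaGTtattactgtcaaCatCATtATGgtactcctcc
Igkv4-55: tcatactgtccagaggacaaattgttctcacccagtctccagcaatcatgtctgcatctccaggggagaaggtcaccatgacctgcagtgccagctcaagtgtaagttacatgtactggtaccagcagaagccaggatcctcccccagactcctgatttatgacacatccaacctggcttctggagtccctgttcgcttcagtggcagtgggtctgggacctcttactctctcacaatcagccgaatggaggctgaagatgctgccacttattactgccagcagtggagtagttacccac
Igkv12-89 and Igkv12-44 were 84.6% identical, and Igkv12-89 and Igkv4-55 were 61.8% identical. Among the 100 kappa genes compared, the gene closest to Igkv12-89 was Igkv12-46 at 85.9%, but Igkv12-44 had a relative of 95.6% (Igkv12-41) and Igkv4-55 one of 95.4% (Igkv4-68). Counts of the last 2 genes are therefore uncertain where reads could be divided with these relatives, and C3H/HeJ alleles absent from the reference were not assessed.

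**Figure D2:**
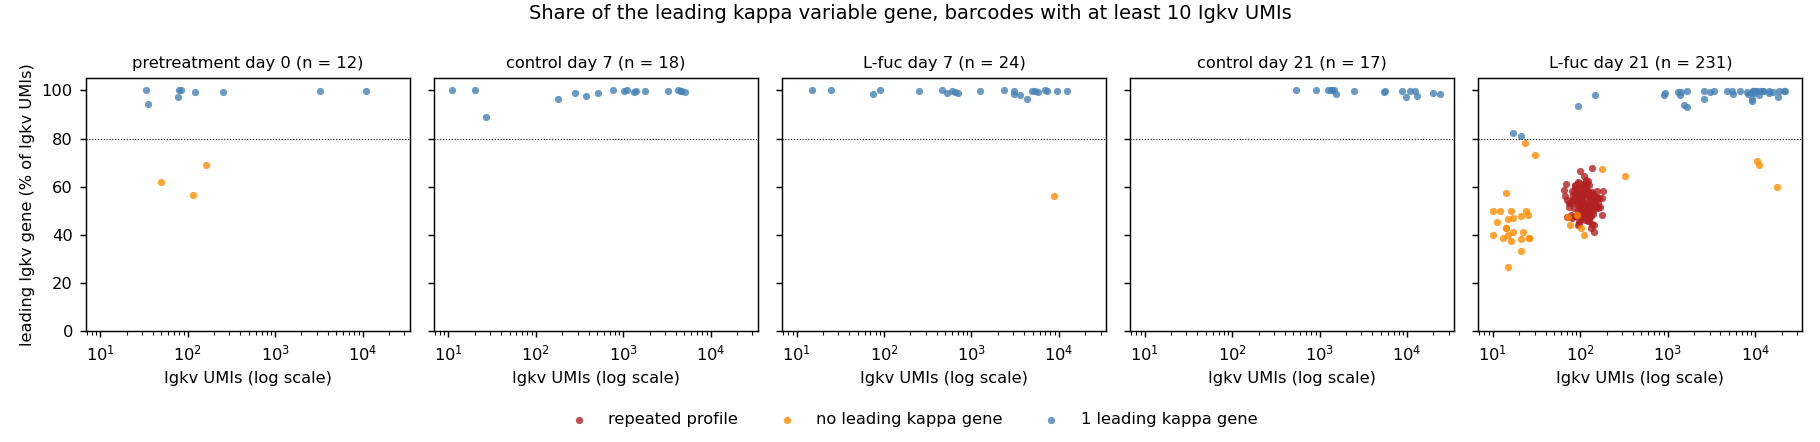
Share of the leading kappa variable gene (percent of Igkv UMIs) against Igkv UMIs (log scale) in Jchain-high barcodes with at least 10 Igkv UMIs, 1 panel per library, with a dotted line at 80%. The barcodes of the repeated profile lie between 41.3 and 67.9%, below every barcode counted as having 1 leading kappa gene.

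Plasma cell genes were present in most but not all Jchain-high barcodes. At least 2 of Xbp1, Mzb1 and Sdc1 had a UMI in 11, 17, 25, 17 and 142 of the Jchain-high barcodes of the 5 libraries, in all 212 of 335 (63.3%, 57.9 to 68.5), whereas the other barcodes of the same libraries reached 7.53, 6.04, 5.35, 9.17 and 20.3%. Mzb1 had a UMI in 283 of the 335 barcodes, Xbp1 in 233 and Sdc1 in 86. Of the other barcodes of the 5 libraries 8.51, 1.30, 1.81, 2.19 and 14.5% held Mzb1. Xbp1 was held by 35.2, 35.1, 29.7, 43.9 and 50.9% of them and Sdc1 by 7.47, 9.51, 6.93, 10.2 and 16.8%. In L-fuc day 21, where the Jchain-high barcodes were shallower, 209 of the 243 held Mzb1, 155 Xbp1 and 43 Sdc1. After each barcode was thinned to 1000 UMIs, which left out 11 shallower ones, the share with at least 2 of these genes was 127 of 324 (39.2%, 33.8 to 44.7) against 90 of 31312 other barcodes. Over all libraries, the share of Jchain-high barcodes with plasma cell genes was thus lower at a fixed depth, and remained far above that of the others. These pooled shares mix the libraries in different proportions, since 243 of the 335 Jchain-high barcodes came from L-fuc day 21. Thinned shares are not given by library.

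Genes of other cell types were found in many of the same barcodes. At least 2 of C1qa, C1qb and C1qc, the complement genes of macrophages, had a UMI in 0 of 14, 14 of 28, 12 of 31, 11 of 19 and 196 of 243 Jchain-high barcodes, against 40.0, 35.4, 41.4, 60.1 and 47.6% of the others. At least 2 of the 6 tumor genes had a UMI in 0, 19, 2, 1 and 25 barcodes. Of all 335 barcodes, 67 held plasma cell genes without macrophage or tumor genes, 145 held plasma cell genes together with either, 106 held macrophage or tumor genes without plasma cell genes, and 17 held none of the 3 sets. The pretreatment library stood apart: 11 of its 14 barcodes held plasma cell genes alone, and no complement or tumor gene set was found in any of the 14, which allows a share of up to 23.2%.

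The barcodes were also divided by their kappa genes. Among the 108 barcodes with 1 leading kappa gene, 102 (94.4%, 88.3 to 97.9) held plasma cell genes, 42 (38.9%) held complement genes and 20 (18.5%) held tumor genes. Of those 20, 12 came from control day 7, where tumor genes were also found in 77.0% of the other barcodes. Among the 72 barcodes with neither 1 leading kappa gene nor the repeated mixture, 22 (30.6%, 20.2 to 42.5) held plasma cell genes, 44 (61.1%) complement genes and 19 (26.4%) tumor genes. The division itself follows antibody RNA and depth, since 33 of these 72 had fewer than 10 Igkv UMIs, so nothing is read from the difference. In the pretreatment library the counts for plasma cell genes were 7 of 9 and 4 of 5. In the 155 barcodes of the repeated mixture the counts were 88 for plasma cell genes (56.8%), 147 for complement genes (94.8%) and 8 for tumor genes. The plot of barcodes that hold each gene set gives these shares by library.

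**Figure D3:**
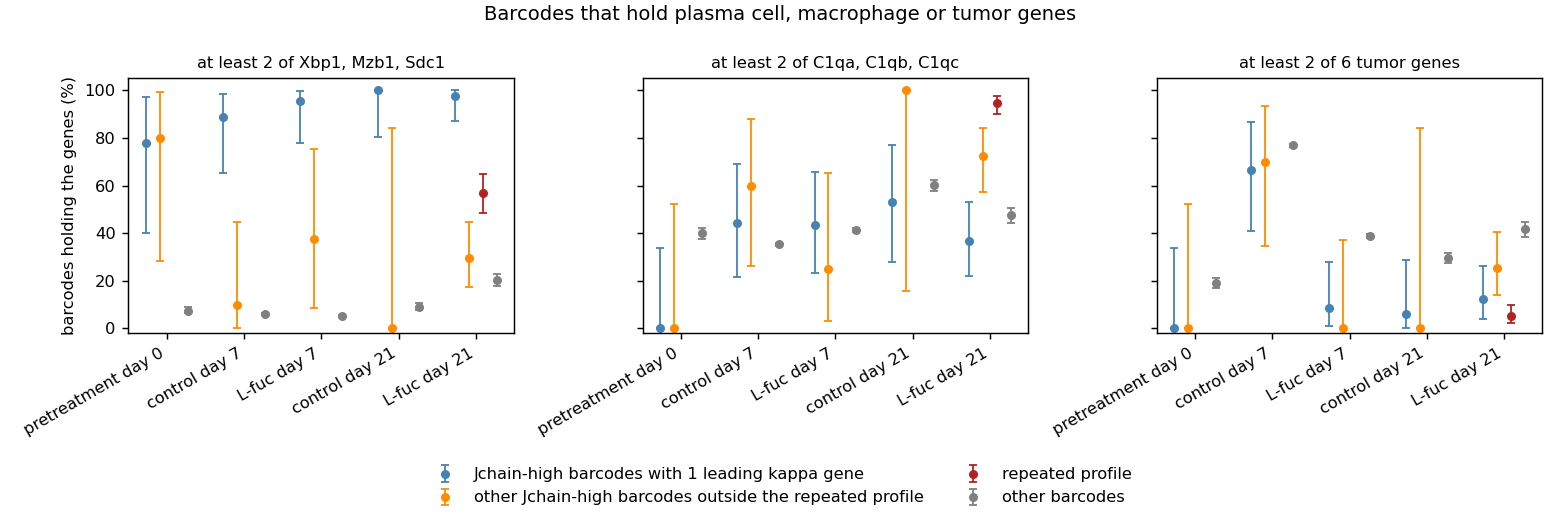
Percent of barcodes with a UMI of at least 2 genes of each set (plasma cell, macrophage and tumor genes from left to right) by library, with exact 95% binomial intervals; blue, Jchain-high with 1 leading kappa gene; orange, other Jchain-high barcodes outside the repeated profile; red, repeated profile; gray, all other barcodes. From day 7 on, the blue points for plasma cell genes lie above the orange ones, and the red point for macrophage genes is the highest of L-fuc day 21 at 94.8%.

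The share with plasma cell genes is also given by Jchain level, as a description only. Outside the repeated mixture, 52 barcodes had 3 or 4 Jchain UMIs, and of these 6 (11.5%) held plasma cell genes and 4 had 1 leading kappa gene. Of the 14 with 5 to 9 UMIs, 9 held plasma cell genes, as did 34 of the 39 with 10 to 99 UMIs and all 75 with 100 or more. The barcodes of 100 or more UMIs also were the deepest, with a median of 28740 UMIs, and antibody genes took a median of 44.8% of their UMIs against 0.439% in those with 3 or 4. At the threshold itself, 7 of 43 barcodes with exactly 3 Jchain UMIs held plasma cell genes, 29 held complement genes and 13 tumor genes. Just outside it, of 204 barcodes with 2 Jchain UMIs and no Cd3 UMI, 16 held plasma cell genes, 106 complement genes and 93 tumor genes. Barcodes with 3 or 4 Jchain UMIs outside the mixture had a median of 1831.5 UMIs in total. Since the rule used Jchain and depth differed with it, nothing is read from the differences between these shares. The 43 barcodes included 9 of the repeated mixture.

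To describe the RNA of the Jchain-high barcodes, their summed UMIs were set against those of the other barcodes of each library as log2 ratios after 1 UMI was added to each sum, with a gene counted as higher at a ratio of at least 1 and lower at -1 or less. Antibody genes took 19.2, 21.4, 33.4, 47.8 and 28.9% of the UMIs of the Jchain-high barcodes and under 1% of those of the others, which pushes all other genes down. Scaling by the remaining UMIs raised every log2 ratio by 0.31, 0.35, 0.58, 0.94 and 0.48, and moved the median over all genes from -0.03, 0.04, -0.33, -1.08 and -0.74 to 0.28, 0.38, 0.25, -0.14 and -0.25. On the first scale 15.4, 25.5, 18.1, 4.69 and 3.83% of all genes tested were higher and 21.2, 10.3, 25.8, 52.8 and 35.4% were lower. On the second scale 23.9, 31.3, 28.4, 15.3 and 6.81% were higher and 16.1, 5.25, 13.0, 24.7 and 19.6% lower. These shares do not count only genes that were higher in the Jchain-high barcodes, because the added UMI was worth 4.68, 3.81, 2.06, 2.17 and 0.416 CPM (UMIs per 1000000 UMIs of the group) in them and far less in the larger group of others. Of the genes counted as higher on the first scale, 115, 2399, 1314, 0 and 0 had no UMI in the Jchain-high barcodes.

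The calls were therefore repeated with the same CPM added to both groups, that of 1 UMI in the smaller one, a setting chosen after the values were seen. With equal CPM 6.57, 2.27, 3.89, 2.91 and 3.59% of genes were higher and 31.4, 17.3, 33.1, 62.6 and 36.9% lower, with medians of -0.54, -0.37, -0.64, -1.30 and -0.76. Without antibody genes in the scale 9.66, 3.59, 7.65, 6.88 and 6.01% were higher and 25.6, 10.6, 18.7, 34.1 and 20.9% lower. Lower genes thus outnumbered higher ones in each library on both scales with equal CPM. Log2 ratios below have 1 UMI added and are on the first scale unless stated. For Jchain-high over other barcodes they are larger than those with equal CPM for genes of few UMIs. Between L-fuc and control, the control group held fewer UMIs. There equal CPM gave medians over all genes of -0.28 at day 7 and 0.59 at day 21, against -0.32 and 0.50 with 1 UMI added.

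Genes of the plasma cell program were higher in all libraries. Of 20 listed genes, 14 of 18 tested were higher in the pretreatment library (median log2 ratio 2.34), 18 of 19 in control day 7 (2.74), 19 of 20 in L-fuc day 7 (3.23), 18 of 20 in control day 21 (3.70) and 18 of 19 in L-fuc day 21 (2.81). With equal CPM the counts were 14, 16, 18, 18 and 18, and 11, 16, 17, 18 and 18 when the barcode richest in each gene was left out as well. Of all genes 15.4, 25.5, 18.1, 4.69 and 3.83% were higher, and 6.57, 2.27, 3.89, 2.91 and 3.59% with equal CPM. Mzb1 counted 572, 495, 1654, 2814 and 8335 UMIs in Jchain-high barcodes and 369, 536, 1431, 65 and 793 in the many more other barcodes, which gave log2 ratios of 6.68, 8.67, 7.64, 10.87 and 5.92. Xbp1 was at 716, 727, 1176, 1943 and 1036 CPM against 90.9, 97.6, 94.7, 138 and 142, with log2 ratios of 2.99, 2.91, 3.64, 3.82 and 2.87. In the pretreatment library 1 IgG barcode held 95 of the 153 Xbp1 UMIs and 257 of the 572 Mzb1 UMIs, and without it the ratios were 1.81 and 6.03. Among the barcodes with 1 leading kappa gene the median level of Xbp1 per 10000 UMIs was 0.998 there, against 0.909 in the others, and 7.55, 8.35, 19.9 and 11.8 in the later libraries, against 0.976, 0.947, 1.38 and 1.42. The summed Xbp1 of the pretreatment library thus came from few barcodes, and the median of its barcodes with 1 leading kappa gene was close to the level of the others.

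Most regulators and receptors of the program were also higher. The exceptions were Prdm1 and Sdc1 in the pretreatment library, Cd27 in the 4 libraries where it reached the UMI minimum and Cd38, which encodes a surface enzyme and was higher in 2 of 5 libraries with 1 UMI added (1.30 in control day 7 and 1.26 in L-fuc day 7) and below 1 in both with equal CPM (0.61 and 0.89). Irf4, a transcription factor needed for plasma cell formation, had log2 ratios of 2.66, 5.55, 4.51, 6.16 and 3.73, the first of them from 13 UMIs of which 9 lay in 1 barcode (1.38 without it). Pou2af1, a coactivator of antibody genes in B lineage cells, had ratios of 5.67, 8.87, 7.59, 8.66 and 5.14. Tnfrsf13b, which encodes the receptor TACI for the survival factors BAFF and APRIL, had ratios of 1.92, 3.81, 3.37, 2.95 and 2.21. In the pretreatment library Prdm1 and Sdc1 counted 1 and 3 UMIs and had log2 ratios of -1.03 and -0.11, while in the later libraries Prdm1, the repressor that ends the B cell program, was at 2.60, 1.26, 1.68 and 1.30 and Sdc1 at 1.23, 2.17, 3.02 and 1.71 (0.99 in control day 7 with equal CPM). Cd27, a receptor of memory B cells and plasma cells, was not higher in any of those libraries and counted 1 UMI in all Jchain-high barcodes.

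Genes of protein folding and export differed among themselves. Of 28 listed genes 7, 7, 14, 12 and 9 were higher, and 11, 12, 20, 23 and 16 on the scale without antibody genes. With equal CPM these were 6, 5, 14, 10 and 9, and 11, 10, 20, 23 and 16. Of all genes 15.4, 25.5, 18.1, 4.69 and 3.83% were higher, and 23.9, 31.3, 28.4, 15.3 and 6.81% on the scale without antibody genes. With equal CPM these shares were 6.57, 2.27, 3.89, 2.91 and 3.59%, and 9.66, 3.59, 7.65, 6.88 and 6.01%. The 7 of 28 in control day 7 were about the share of all genes called with 1 UMI added (25.5%), and the 5 of 28 with equal CPM stand beside 2.27%. Sel1l, which withdraws misfolded proteins from the ER, was higher in all 5 libraries (2.10, 2.26, 2.87, 2.91 and 2.19). So were Edem1, which marks misfolded glycoproteins (2.21, 2.74, 3.45, 4.24 and 3.43), and Sec11c, a subunit of the signal peptidase (1.85, 2.89, 3.09, 3.90 and 2.81), both counted with the plasma cell list. Hspa5, the main ER chaperone, was at -0.46, 0.38, 0.67, -0.43 and 0.13 and reached 1 only in L-fuc day 7 on the scale without antibody genes (1.25). Calr, Canx, P4hb and Pdia3, which encode chaperones and a disulfide isomerase pair used by most secreting cells, were higher in none of the libraries on the first scale. In contrast, the chaperone gene Hsp90b1 was higher in 4 of the 5 libraries (1.38, 0.93, 1.59, 1.10 and 1.40), where the first value rests on 1 barcode with 339 of 422 UMIs (-0.74 without it) and the value of control day 21 was 0.78 without its richest barcode, and Txndc5, which encodes a disulfide isomerase, in all 5 (2.63, 2.51, 2.98, 3.57 and 1.88). In the pretreatment library the ratios of Sel1l and Edem1 were 1.44 and 1.56 without the barcode richest in each, and of the folding list 3 genes were higher with equal CPM when the richest barcode was left out. The plot of plasma cell, folding and export genes shows this range.

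**Figure D4:**
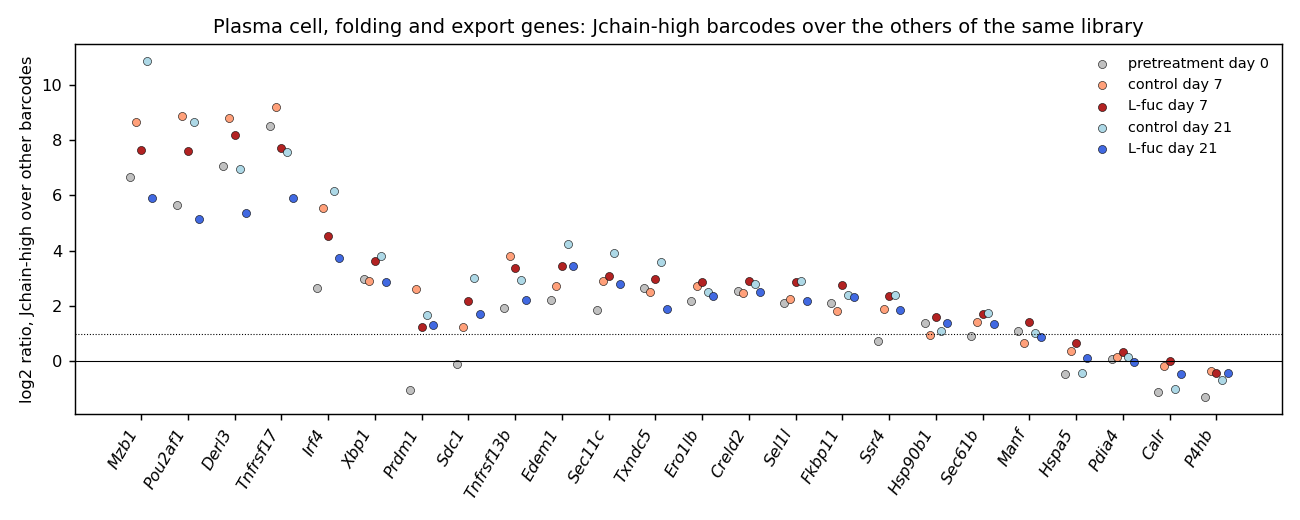
Log2 ratio of Jchain-high over other barcodes of the same library (y axis) for 24 plasma cell, folding and export genes (x axis), 1 point per library, with a dotted line at 1; no error bars are drawn because each condition has 1 library, and 1 UMI was added to each sum. Mzb1 ranges from 5.92 to 10.87 and Xbp1 from 2.87 to 3.82, whereas Hspa5 stays between -0.46 and 0.67.

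B cell genes differed between the libraries, with median log2 ratios of the tested genes of the list of 3.22, 4.28, 4.56, 3.53 and 1.27, or 2.65, 1.29, 2.26, 2.88 and 1.22 with equal CPM. Cd79a, the signalling chain of the B cell receptor, counted 309, 66, 193, 192 and 688 UMIs in the Jchain-high barcodes, with log2 ratios of 3.12, 6.86, 6.67, 6.10 and 3.17. Ms4a1, which encodes CD20, counted 109, 2, 22, 16 and 57. The level of Ms4a1 was 510 CPM in the pretreatment library and between 7.61 and 45.2 in the later ones. All 14 barcodes of the pretreatment library had a UMI of at least 2 of 4 B cell genes, among them Cd79a, Cd79b and Ms4a1. All 15 listed B cell genes were higher there, also with equal CPM, beside 15.4 and 6.57% of all genes. In the later libraries 10 of 11, 10 of 11, 6 of 8 and 7 of 11 tested were higher, beside 25.5, 18.1, 4.69 and 3.83% of all genes. With equal CPM these were 6, 8, 6 and 7, beside 2.27, 3.89, 2.91 and 3.59%.

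By the rule for named genes, the highest genes of the pretreatment library included Rgs13, a regulator of G protein signalling, with 60 UMIs in 14 barcodes against 43 in the 1646 others (log2 ratio 6.52). Mef2b was at 5.84 and Gcsam at 5.88. These genes are known from germinal center B cells. Of 10 cell cycle genes 6 were higher there with a median log2 ratio of 1.39, where 15.4% of all genes were, and the same count came with equal CPM added (median 1.30, 6.57% of all genes). In the later libraries 0 of 10 were higher and 0, 5, 6 and 7 were lower, beside 10.3, 25.8, 52.8 and 35.4% of all genes. On the scale without antibody genes 2 of 10 were higher in control day 7 with 1 UMI added and 0 with equal CPM. With 1 UMI added 0, 2, 3 and 4 were lower on that scale, beside 5.25, 13.0, 24.7 and 19.6% of all genes. The antibody share of the pretreatment library was small, with a median of 1.27% of UMIs against 18.1, 22.8, 63.9 and 12.9% in the later libraries. When the 14 barcodes were ordered by Xbp1 after their values were seen, 3 of them held 95, 28 and 16 Xbp1 UMIs and the other 11 held 0 to 4. The 3 held 3098 of the 3267 Jchain UMIs, 466 of 572 Mzb1 UMIs and no Rgs13, while Rgs13 was found in 10 of the other 11 and 104 of the 109 Ms4a1 UMIs lay in those 11. The 14 barcodes of the pretreatment library thus were of more than 1 kind, with the defining plasma cell genes Prdm1 and Sdc1 at 1 and 3 UMIs, and they are called Jchain-high barcodes here and not plasma cells.

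In the later libraries the highest genes by the rule for named genes included Mzb1 and Derl3 in each, beside Jchain, which chose the barcodes. Some of the other highest genes recurred. Pou2af1, Eaf2 and Gm30211 were among them in control day 7, L-fuc day 7 and control day 21. Vpreb3 was among them in control day 7 and both L-fuc libraries, and Tnfrsf17 and Oosp1 in L-fuc day 7 and both day 21 libraries. Others were among them in 1 of these libraries only, such as Epcam and Pon3 in control day 7 and Reln, Endou and Tg in L-fuc day 21. Whether the highest genes as a group belong to antibody-secreting cells was not tested. Derl3, an ER degradation factor, led L-fuc day 7 (130 against 78 UMIs, 8.17). Oosp1 counted 64 UMIs in control day 21 and none in the 1962 other barcodes. Tmed6, a cargo receptor of early secretion, counted 31 UMIs in L-fuc day 21, all in 1 barcode, and none in the others, and Bhlha15, a transcription factor of secretory cells also called MIST1, counted 75 against 5 UMIs (6.19). Slpi, a secreted protease inhibitor, was at 7452 CPM in L-fuc day 7 (log2 ratio 6.01, or 4.17 without the 1 IgG barcode that held 2674 of its 3624 UMIs) and at 4701 in L-fuc day 21 (7.41). The lowest genes were macrophage genes in the pretreatment library, C1qb with 0 UMIs against 31284 in the others, and matrix genes in L-fuc day 21, Col1a1 with 1 against 9013 UMIs.

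The heavy chain class could be read in 114 barcodes outside the repeated mixture, in which 1 of IgM, IgG and IgA took at least 90% of at least 10 heavy constant UMIs. There were 18 IgM, 59 IgG and 37 IgA barcodes, and 7 more held mixed classes. By library the numbers of IgM, IgG and IgA were 3, 3 and 0 in the pretreatment library, 6, 3 and 8 in control day 7, 2, 10 and 12 in L-fuc day 7, 0, 7 and 9 in control day 21 and 7, 36 and 8 in L-fuc day 21. IgG was thus the most frequent class in L-fuc day 21, and IgA was found in each library but the pretreatment one. The comparison of genes between classes was chosen after their values were seen.

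Jchain levels by class are a description only, since Jchain chose the barcodes and those under 3 UMIs were left out. The median of Jchain per 10000 UMIs of a barcode was 70.4 for IgG and 156 for IgA in control day 7, 46.8 and 167 in L-fuc day 7, 64.6 and 281 in control day 21 and 55.5 and 170 in L-fuc day 21, while IgM was at 544, 166, 367 and 152 in the 4 libraries with such barcodes. The J chain protein is a part of secreted IgM and IgA, yet Jchain RNA was found in IgG barcodes as the rule requires. Single barcodes of the 3 classes overlapped, as the plot of Jchain by class shows. In control day 21, 6 of the 9 IgA barcodes shared 1 pair of leading kappa and heavy genes, and the IgA median was 290.3 with that pair counted once. In L-fuc day 21 the medians with each pair counted once were 431 for IgM, 44.2 for IgG and 234 for IgA, so that IgM stood above IgA there and below it with all barcodes. In L-fuc day 21 an IgG barcode reached a count of 1068 and an IgA barcode had as few as 4.

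**Figure D5:**
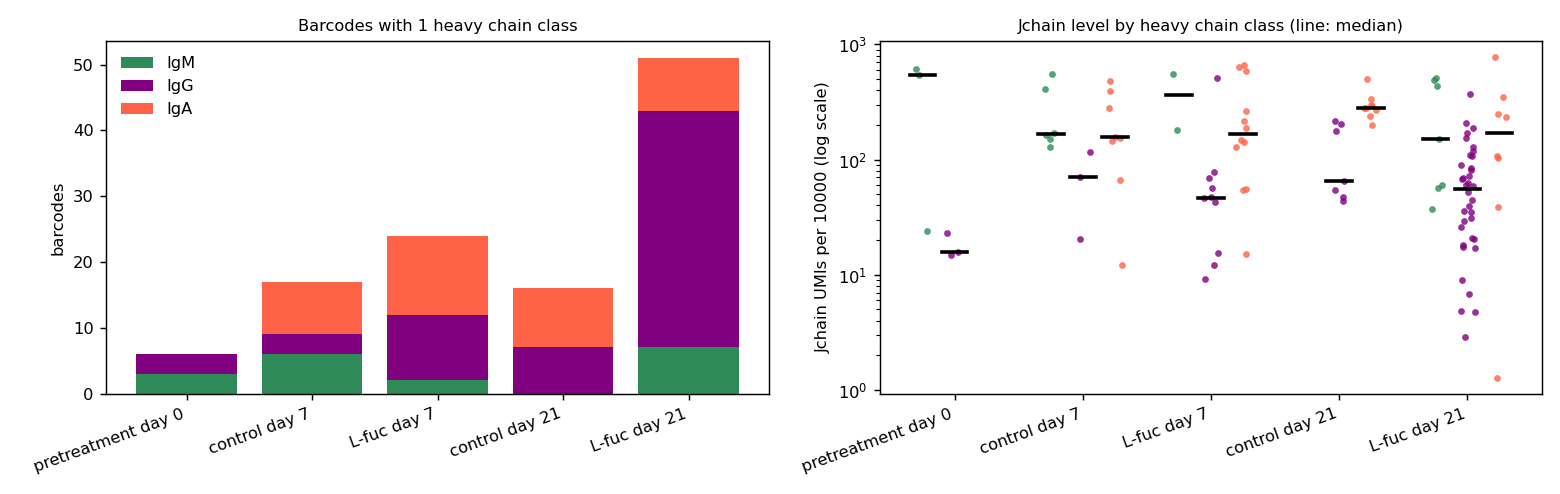
Left, number of Jchain-high barcodes outside the repeated profile with 1 heavy chain class, stacked by class and library; right, Jchain UMIs per 10000 UMIs (log scale) of each of these barcodes, with the median as a black line. IgG medians lie below IgA medians in the 4 libraries that hold both, and single barcodes of the classes overlap.

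Among genes of homing and survival, Ccr10, the receptor that guides IgA plasma cells to epithelia, had a UMI in 25 of 37 IgA barcodes (67.6%, 50.2 to 82.0), 12 of 59 IgG barcodes (20.3%, 11.0 to 32.8) and 0 of 18 IgM barcodes (0%, up to 18.5). The IgG barcodes were deeper, with a median of 27400 UMIs against 12558 for IgA. By library, Ccr10 was found in 4 of 8, 10 of 12, 6 of 9 and 5 of 8 IgA barcodes from control day 7 on, and in 0 of 3, 2 of 10, 1 of 7 and 9 of 36 IgG barcodes. The order was the same in each of these libraries. With each pair of leading kappa and heavy genes counted once in a library, Ccr10 was found in 21 of 27 IgA and 10 of 43 IgG pairs. In control day 21 the 6 IgA barcodes of the shared pair held it in 3 and the other 3 IgA barcodes in all. Tnfrsf17, which encodes the APRIL receptor BCMA, had a UMI in 9 of 18 IgM, 5 of 59 IgG and 15 of 37 IgA barcodes. Mki67, a gene of dividing cells, had a UMI in 8, 39 and 16 barcodes of the 3 classes, and Slpi in 8, 51 and 20, with up to 2674 UMIs in 1 IgG barcode.

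The repeated mixture was found by listing the leading kappa and heavy variable genes of each barcode, and the set was chosen after its values were seen. In L-fuc day 21, 171 barcodes that passed the filters were led by Igkv12-89 and Ighv6-6. Of these, 155 were Jchain-high, 63.8% of the 243 of the library, 14 had a Cd3 UMI and 2 had fewer than 3 Jchain UMIs. Their Igkv UMIs divided into 53.8% Igkv12-89, 32.5% Igkv4-55 and 9.99% Igkv19-93, and 77.2% of their Ighv UMIs were Ighv6-6. They held 2169 UMIs of Ighm, 1727 of Ighg1 and 49 of Igha, and all 155 Jchain-high barcodes among them held both IgM and IgG UMIs. A further 3 barcodes were led by Igkv4-55 and Ighv6-6.

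These 171 barcodes were alike in the measures taken. Total UMIs ran from 881 to 2850 with a median of 1583, Jchain from 1 to 18 with a median of 8, and mitochondrial UMIs from 3.10 to 6.12%. Over the 558 genes with enough UMIs, the chi-square of their counts between barcodes was 1.07 per degree of freedom, where counting error alone gives about 1, and it was 1.04 over 1518 genes without antibody genes. Barcodes with complement genes and the same range of depth gave 2.69, 1.33, 1.50, 2.14 and 2.07 in the 5 libraries. Without antibody genes these gave 1.88, 1.22, 1.31, 1.63 and 1.44. The 11 barcodes of L-fuc day 21 led by Igkv12-44 and Ighv1-82 gave 23.6, and 6.54 without antibody genes, but they ran up to 97503 UMIs, and greater depth itself raises this measure. The 171 barcodes thus differed from each other by little more than counting error, and they are counted once in some of the comparisons below.

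The repeated mixture held RNA of several cell types. Ighm, Ighg1, Mzb1 (150 of the 155 Jchain-high barcodes) and Xbp1 (88) stood beside C1qa at 1799 CPM, and complement genes were held by 147 of the 155. Sdc1 had a UMI in 5 of the 155, and Ptprc in 53 of the 171. Gm42418, a gene that overlaps ribosomal RNA, took 9.92% of their UMIs against 2.88% in the other barcodes of the library. None had a T cell receptor contig, and none was marked as a doublet in a library where Scrublet marked 3 of 1236 barcodes. The barcode sequences of the 171 differed from each other by at least 4 of 16 bases and by a median of 12. In the rest of the library the median was also 12, and the smallest difference was 2 bases. What produced them was not tested.

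Other pairs of leading genes recurred on a smaller scale. In L-fuc day 21, 13 barcodes were led by Igkv8-16 and Ighv14-4, of which 9 had a Cd3 UMI and 3 were Jchain-high. They held 1877 UMIs of Ighm and 2 of Ighg, with a chi-square of 1.66 per degree of freedom over 20 genes. In control day 21, 6 Jchain-high barcodes shared Igkv15-103 and Ighv3-8, all of the IgA class with 579 UMIs of Igha and none of Ighm, 51 to 202 Jchain UMIs and 2579 to 6665 UMIs in total. Their chi-square was 2.16 over 13 genes and 1.23 over 42 genes without antibody genes, and all 6 held plasma cell and complement genes.

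Antibody RNA was also found in barcodes that did not meet the rule. A Jchain UMI was present in 0.194, 6.59, 4.71, 6.85 and 30.6% of barcodes with macrophage genes, in 0, 6.72, 3.79, 4.17 and 23.1% of those with T cell genes and in 0, 5.90, 4.62, 8.02 and 23.1% of those with tumor genes, types that are not known to express the gene. L-fuc day 21 had the highest share of each type, where the median depths were 4242.5, 3883.5 and 23819 UMIs, against 1678 in the Jchain-high barcodes of the library. In the other libraries, from the pretreatment one on, barcodes with macrophage genes had median depths of 2694.5, 1810, 1393 and 2073 UMIs. Those with T cell genes had 3668, 2318.5, 3496.5 and 4900, and those with tumor genes 16393, 6389, 12993.5 and 21638. The part of depth in these shares was not tested. A single Jchain UMI was the usual case, with 8, 1088, 536, 126 and 195 barcodes at 1 UMI and 3, 86, 51, 20 and 82 at 2. Barcodes with 1 or 2 Jchain UMIs in L-fuc day 21 thus outnumbered the Jchain-high barcodes that had 1 leading kappa gene.

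The ratio of Igkc, the kappa constant gene, to Jchain is given as a description only, since the rule chose barcodes by the Jchain count in its denominator. In Jchain-high barcodes it was 0.302, 2.40, 1.43, 0.948 and 1.46, and in the others 14.1, 2.68, 1.39, 1.28 and 2.50. In the pretreatment library the ratio of the other barcodes was far above that of the Jchain-high ones, and 549 of their 1144 Igkc UMIs lay in 111 barcodes with B cell genes. In L-fuc day 7 the ratios of 1.43 (1.39 to 1.47) and 1.39 (1.35 to 1.43) overlapped, but 91.6% of the Jchain UMIs outside the rule lay in 10 barcodes. In barcodes with complement genes the ratio was 0.735 in control day 7, 1.88 in L-fuc day 7, 1.08 in control day 21 and 1.86 in L-fuc day 21.

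The requirement of no Cd3 UMI left out 6, 19, 16, 0 and 30 barcodes with at least 3 Jchain UMIs, 71 in all. Of these, 54 held plasma cell genes and 37 had 1 leading kappa gene. They held 10826 Jchain UMIs, of which 7630 were in L-fuc day 7, and 33 of the 71 had a single Cd3 UMI. Sequencing of T cell receptors from these pools gave a contig for 19 of the 71 and for 0 of the 335 Jchain-high barcodes (up to 1.10%), against 23.5, 4.88, 8.76, 2.85 and 2.22% of the other barcodes. The rule bears on this count, since it required that no Cd3 UMI be present, and nothing is read from the difference. Siglech, the marker of plasmacytoid dendritic cells, which also express Jchain, counted 0, 0, 15, 1 and 2 UMIs, and 1 of the 335 barcodes held at least 2 of Siglech, Cox6a2, Ccr9 and Klk1.

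The shares of these barcodes in the L-fuc and control libraries of the same day were set side by side as ratios, which compare these libraries and not the treatments, since each condition is 1 pooled library. At day 7, 31 of 12265 barcodes against 28 of 19298 gave a ratio of 1.74 (1.01 to 3.01). At day 21, 243 of 1236 against 19 of 1981 gave a ratio of 20.5 (12.8 to 34.6). With the repeated mixture counted as 1 barcode, also in the total, 89 of 1066 against 19 of 1981 gave a day 21 ratio of 8.70 (5.26 to 15.1). For barcodes with 1 leading kappa gene, 41 of 1236 against 17 of 1981, it was 3.87 (2.15 to 7.26). That total still counts each barcode of the mixture, so the 2 ratios have unlike totals. Of the 243 barcodes of L-fuc day 21, 41 had 1 leading kappa gene.

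At day 7 the ratio for barcodes with 1 leading kappa gene was 2.01 (1.04 to 3.95). Barcodes with tumor genes made up more of the control library. Among barcodes without them, 21 of 7503 against 6 of 4446, it was 2.07 (0.810 to 6.28), and with each pair of kappa and heavy genes counted once it was 1.48 (0.679 to 3.19). At day 21 the same ratios were 3.95 (2.14 to 7.62) and 3.87 (1.92 to 8.33). A filter of the study's methods that was not part of the rule bears on these shares: barcodes with a complexity (log10 of genes over log10 of UMIs) under 0.8 were removed there, and antibody-rich barcodes have few genes per UMI. It would keep 12 of 14, 26 of 28, 24 of 31, 4 of 19 and 215 of 243 Jchain-high barcodes, and 8 of 9, 16 of 18, 18 of 23, 2 of 17 and 18 of 41 of those with 1 leading kappa gene. The filter thus acts most on control day 21, and with it the ratio of day 21 becomes 88.3 (34.0 to 327), which rests on 4 control barcodes. The ratio of day 7 for all Jchain-high barcodes was 1.50 (0.822 to 2.71) with the filter and 1.19 (0.861 to 1.63) at 2 or more Jchain UMIs.

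Expression in Jchain-high barcodes was compared between L-fuc and control by the same log2 ratios. At day 7, 11.4% of 2543 genes tested were higher and 19.5% lower, and at day 21 30.1% of 6946 were higher and 2.12% lower. On the scale without antibody genes these were 14.5 and 13.9% at day 7 and 18.8 and 6.03% at day 21, so that the balance turned at day 7 and the split at day 21 rests in part on antibody RNA being 47.8% of the control and 28.9% of the L-fuc UMIs. The plasma cell list had 2 of 17 genes higher and none lower at day 7, with a median of 0.52, and none of 19 higher and 4 lower at day 21, with a median of -0.64 against 0.50 over all genes. On the scale without antibody genes 5 were higher at day 7 and 10 lower at day 21. On the first scale with equal CPM, once the barcode richest in each gene was left out, 1 was higher at day 7 and 2 lower at day 21. Xbp1, Mzb1 and Sdc1 differed by less than 1 on both days on the first scale, while on the second 2 of the 3 were higher at day 7 and 2 lower at day 21. Among barcodes with 1 leading kappa gene at day 21, where 23.4% of genes were higher and 1.86% lower, the plasma cell list had 0 of 18 higher and 3 lower (median -0.37). On the scale without antibody genes, where 15.5% were higher and 3.77% lower, 5 were lower (median -0.67). In these barcodes 1 was lower with equal CPM on the first scale once the barcode richest in each gene was left out. At day 7 these barcodes had 1 of 17 genes of the list higher and none lower on both scales, with medians of 0.14 and 0.21. All genes tested there were higher in 12.1% and lower in 10.4% on the first scale, and in 12.3 and 9.45% on the second. In barcodes with 1 leading kappa gene Xbp1, Mzb1 and Sdc1 differed by less than 1 on both days and scales.

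Genes of other cells moved with these comparisons. At day 7 the 3 tested red cell genes were higher in L-fuc (median log2 ratio 3.59), beside 11.4% of all genes. The 5 listed red cell genes summed to 278 and 3319 CPM in the Jchain-high barcodes of control and L-fuc. In the other barcodes they summed to 2157 and 7894 CPM, so they were higher in L-fuc there as well. Of the cell cycle list 5 of 7 tested genes were lower at day 7, or 4 on the scale without antibody genes, beside 19.5 and 13.9% of all genes. At day 21, 4 of 10 were higher, or 2 on that scale, beside 30.1 and 18.8%. C1qa, C1qb and C1qc were higher in L-fuc than control on both days, with a median log2 ratio of 2.14 at day 7 and 2.67 at day 21. At day 7, 1 L-fuc barcode held 329 of the 691 C1qa UMIs, and without the richest barcode C1qa, C1qb and C1qc were at 1.31, 2.20 and 1.28. The medians were 2.79 and 2.29 in barcodes with 1 leading kappa gene. Of the listed macrophage genes, 10 of 11 tested were higher in these barcodes at day 7, beside 12.1% of all genes. At day 21 it was 9 of 13, beside 23.4%, and 7 on the scale without antibody genes, beside 15.5%. With equal CPM and without the barcode richest in each gene, 9 and 6 were higher. In all Jchain-high barcodes the summed level of C1qa, C1qb and C1qc was 815 and 4143 CPM at day 7 and 836 and 5380.4 at day 21 in control and L-fuc. The L-fuc barcodes of day 21 include the repeated mixture, and without it their level was 5469.2 CPM. In the other barcodes of these libraries the level was 1447 and 2661 CPM at day 7 and 7351 and 5753 at day 21. All 14 listed macrophage genes were higher at day 21 in the Jchain-high barcodes, beside 30.1% of all genes. On the scale without antibody genes it was 11, beside 18.8%. At day 7, 10 of 12 tested were higher, beside 11.4%. With equal CPM and without the barcode richest in each gene, 12 were higher at day 21 and 9 at day 7. The highest genes of day 21 were Ccl8, a chemokine of macrophages, with 1761 against 1 UMIs, Retnla (766 against 0), Tnf (650 against 0), Cxcl2 (1513 against 3) and Ccl5 (377 against 0), and those of day 7 were Cox6a2 (63 against 0), Slpi (3624 against 74, log2 ratio 4.71), Gzma (136 against 2), Tnf (42 against 0) and Clec4e (38 against 0). Several of these sums came from 1 barcode. At day 21 the richest barcode of each gene held 702 of the 766 Retnla UMIs, 238 of the 377 Ccl5 UMIs and 664 of the 1761 Ccl8 UMIs, and without the richest barcode the ratios fell from 7.20 to 3.71, 6.18 to 4.76 and 7.40 to 6.75. At day 7 it was 61 of the 63 Cox6a2, 2674 of the 3624 Slpi and 97 of the 136 Gzma UMIs, and the ratios fell from 5.11 to 0.73, 4.71 to 2.87 and 4.62 to 2.92, and those of Tnf and Clec4e to 3.06 and 2.84. Except for Slpi, which IgG barcodes held most often, these are genes known from myeloid, cytotoxic or plasmacytoid dendritic cells, and the part of their RNA in the ratios was not tested.

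The lowest genes were of another kind. At day 7 they were Myl9 (0 against 43 UMIs), Ccn1 (0 against 36), Tnfrsf12a (1 against 69), Lgals7 (1 against 60) and Tinagl1 (2 against 84), genes of contractile, matrix and epithelial cells, in the comparison whose control library held tumor genes in 19 of 28 barcodes. The part of tumor RNA in these ratios was not tested. At day 21 they were Ddt (-3.07), Atp1b1 (-2.93), Ipmk (-2.89), Ccr10 (-2.67) and Cd28 (-2.35). The ratio of Ddt rests on 1 control barcode with 171 of 192 UMIs and was -0.04 without it, and that of Atp1b1 was -2.11 without its richest barcode. Ccr10 counted 44 UMIs in L-fuc and 54 in control, and of the barcodes with 1 heavy chain class 9 of 16 were IgA in the control library and 8 of 51 in the L-fuc library, or 4 of 11 and 7 of 37 with each pair of leading kappa and heavy genes counted once. The part of the class in this ratio was not tested. Among barcodes with 1 leading kappa gene Ccr10 was at -2.15, and Ddt at -3.49 or -0.47 without that barcode.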

How the data were processed

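The authors prepared 10x Genomics libraries from CD45+ sorted SW1 tumor cells and deposited, per the labels, unnormalized UMI counts for each gene and barcode; the labels name Cell Ranger 3.0, Seurat 4.0 and mm10, while the deposited matrix header names Cell Ranger 7.1.0. T cell receptor contig lists of the same pools were used for barcode names only. The 4T1 tumors were not analysed here.

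Barcodes were kept as in the study's methods except for the complexity filter and the removal of doublets, both of which are alternatives. Counts were summed per library and group and scaled to the group total. After 1 UMI was added to each sum, log2 ratios were taken for every gene that reached 30 UMIs when both groups were combined. Because 1 UMI is worth more CPM in the smaller group, calls were repeated with equal CPM added to both and without the barcode richest in each gene, both added after the values were seen. A gene was called at a log2 ratio of 1 or -1. Named genes were those of the lists and, per comparison, the 15 highest and 5 lowest ratios (5 and 5 for L-fuc over control) with at least 10 UMIs in the higher group. Variable antibody genes were summarised as a family, and some genes of the lists are not reported here. Doublets were kept, and those marked by Scrublet (Scanpy 1.11.5) left out as an alternative. Intervals came from SciPy 1.17.1. Sequences came from GRCm38 (GENCODE M21). The rule, the lists and the tests were chosen with earlier results of these data known. Scripts for the log2 ratios and intervals were tested on simulated data.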

Additional observations from a re-analysis of the deposited data

How the results depend on the processing

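Of the values recomputed under alternatives, 69 kept their size and 50 moved. A share or ratio kept its size where it stayed inside the 95% interval of the reported value, and a comparison across all genes, judged by its count of higher genes alone, where that count stayed within 1.5 times the reported one. Alternatives that rest on the kappa genes or the repeated mixture were chosen after seeing the data. For the cause of a change that the alternative's own construction does not show, the cause was not tested. No paired analysis was possible because every condition is a single pool and the labels number no replicates.

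The day 21 ratio of shares was 88.3 (34.0 to 327) with the complexity filter, which left 4 control barcodes, 8.70 with the repeated mixture counted once, 3.87 for barcodes with 1 leading kappa gene and 3.87 with their gene pairs counted once. The share with plasma cell genes was 42.3% at 2 or more Jchain UMIs, 74.9% at 5 or more, 56.2% with the complexity filter, 39.2% when thinned, 68.9% without the repeated mixture and 94.4% with 1 leading kappa gene. Complement genes were at 62.9% at 2 or more Jchain UMIs, 74.7% with the complexity filter, 55.9% when thinned, 47.8% without the repeated mixture and 38.9% with 1 leading kappa gene. Tumor genes were at 26.0, 5.25, 21.7 and 18.5% at 2 or more UMIs, when thinned, without the mixture and with 1 kappa gene. The share with 1 leading kappa gene was 24.7% with the complexity filter and 73.5% without the mixture. Leaving out 1 library at a time gave 61.5 to 76.1% for plasma cell genes, 40.2 to 72.7% for complement genes, 9.12 to 23.9% for tumor genes and 30.6 to 94.4% for 1 leading kappa gene; without L-fuc day 21 these were 76.1, 40.2, 23.9 and 94.4%, and without control day 7 the tumor share was 9.12%.

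Genes higher in Jchain-high barcodes numbered 1822, 3745, 2653, 596 and 479 in the 5 libraries. When thinned, 3037, 6965, 6242, 2209 and 205 were higher and 240, 331, 531, 623 and 987 lower, of 5499, 12244, 11288, 6784 and 5363 tested. With genes of at least 10 UMIs the higher genes numbered 3549, 5625, 4625, 1880 and 732. Scaled without antibody genes they were 2817 at day 0, 4167 in L-fuc day 7, 1950 in control day 21 and 851 in L-fuc day 21. With equal CPM added to both groups they were 776, 333, 571, 370 and 449, with 3707, 2537, 4857, 7962 and 4616 lower in place of 2499, 1514, 3787, 6714 and 4431. The larger counts with 1 UMI added, when thinned or with at least 10 UMIs can include genes without a UMI in the Jchain-high barcodes, since the added UMI weighs more in the smaller group, and no balance of higher and lower genes is read from them. A pseudocount of 0.5 UMI gave 1636 in L-fuc day 7, and barcodes with 1 leading kappa gene gave 2848 at day 0. Genes higher in L-fuc than control numbered 289 at day 7, or 630 with genes of at least 10 UMIs, and 2090 at day 21, or 1303 scaled without antibody genes, 3240 with at least 10 UMIs and 1243 with 1 leading kappa gene. At day 7 lower genes numbered 495, but 354 scaled without antibody genes and 193 with 1 leading kappa gene, fewer there than the 369 and 226 higher. Depth left 2543 genes to compare between L-fuc and control at day 7 and 6946 at day 21.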
